A study of Mus musculus with 4 samples.

Results

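The transcription factor p53, encoded by Trp53, and 9 genes known as its targets or feedback regulators were followed by RNA-seq in the E15 (embryonic day 15) cerebral cortex of the mouse. The 10 genes were chosen by symbol: Trp53, Mdm2, Ccng1, Zmat3, Phlda3, Sesn2, Trp53inp1, Aen, Bax and Bbc3. All 10 were found among the 13289 genes of the count table, and all 10 passed the filter on low counts. Polyadenylated RNA was sequenced from 2 control cortices, titled WT, and 2 Lhx2 cKO cortices. Lhx2 is a LIM-homeodomain transcription factor of cortical progenitors, and cKO is read as conditional knockout. The driver of the deletion, the allele, the strain, the sex and the number of embryos per library are not given in the sources used here, so the cells that lost Lhx2 cannot be named. Nothing says that the 2 libraries of a group came from separate embryos, so p-values measure the spread between these libraries, which may be technical. The question put to the 10 genes was whether changes of progenitor transcripts in the Lhx2 cKO cortex came with a p53 response.

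In unstressed cells p53 protein is kept low by the ubiquitin ligase Mdm2. DNA damage, replication stress or a delayed mitosis stabilises the protein, which then binds paired half-sites near its target genes and raises their transcription. Targets fall into those that slow the cell cycle or tune growth and metabolism, those that drive apoptosis, and Mdm2 itself, which closes a feedback loop. Because p53 is controlled mainly at the protein level, the level of its own transcript is a poor guide to its activity. In the developing cortex p53 is known for the removal of progenitors with mitotic or DNA damage, as seen in mouse models of microcephaly.

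The DNA next to the start sites is shown first, because matches to the p53 consensus occur both in members that rose and in members that did not. RefSeq promoter windows (GRCm38.p6, 250 bases before to 50 bases after each start) were matched by symbol for 8 of the 10 genes, with 11 windows. Zmat3 and Trp53inp1 had no entry. An exact match to the p53 half-site consensus, a motif of 10 bases that reads the same on both strands, was found in 6 of the 11 windows, of 5 genes, against 8.36% of all 32851 windows. A paired site, defined as 2 half-sites up to 13 bases apart with at most 2 mismatches over 20 bases, was found in 4 of the 11 windows, of Ccng1, Aen and Bax, against 10.1% of all windows. The 2 windows of Aen overlap and hold the same site. The paired sites can overlap the exact half-sites. The first pair of sequences holds the 250 bases before the start of Ccng1 (chr11:40755287-40755536, minus strand) and of Bax (chr7:45466899-45467148, minus strand), the 2 genes whose best paired site had 1 mismatch. The capitals mark the half-sites of that pair. The next 3 sequences show the exact half-site in capitals, with 10 bases on either side, in Trp53 (chr11:69580274-69580303, plus strand), Mdm2 (chr10:117710925-117710954, minus strand) and Aen (chr7:78895927-78895956, plus strand).
Ccng1: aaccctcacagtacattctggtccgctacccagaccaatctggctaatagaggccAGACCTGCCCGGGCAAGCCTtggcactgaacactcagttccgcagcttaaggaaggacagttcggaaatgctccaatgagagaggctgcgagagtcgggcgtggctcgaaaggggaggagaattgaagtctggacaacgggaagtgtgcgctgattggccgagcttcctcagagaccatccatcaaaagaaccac
Bax: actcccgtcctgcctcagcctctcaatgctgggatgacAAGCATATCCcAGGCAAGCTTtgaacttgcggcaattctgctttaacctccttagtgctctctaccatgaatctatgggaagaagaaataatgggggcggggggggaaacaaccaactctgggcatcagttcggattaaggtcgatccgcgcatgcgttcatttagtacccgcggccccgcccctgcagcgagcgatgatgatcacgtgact
Trp53: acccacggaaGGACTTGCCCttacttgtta
Mdm2: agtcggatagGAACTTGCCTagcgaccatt
Aen: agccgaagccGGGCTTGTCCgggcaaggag

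A match of letters is a description and not a bound site. The windows of Phlda3, Sesn2 and Bbc3 held neither an exact half-site nor a paired site, which says only that these letters are not in those windows.

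**Figure D1:**
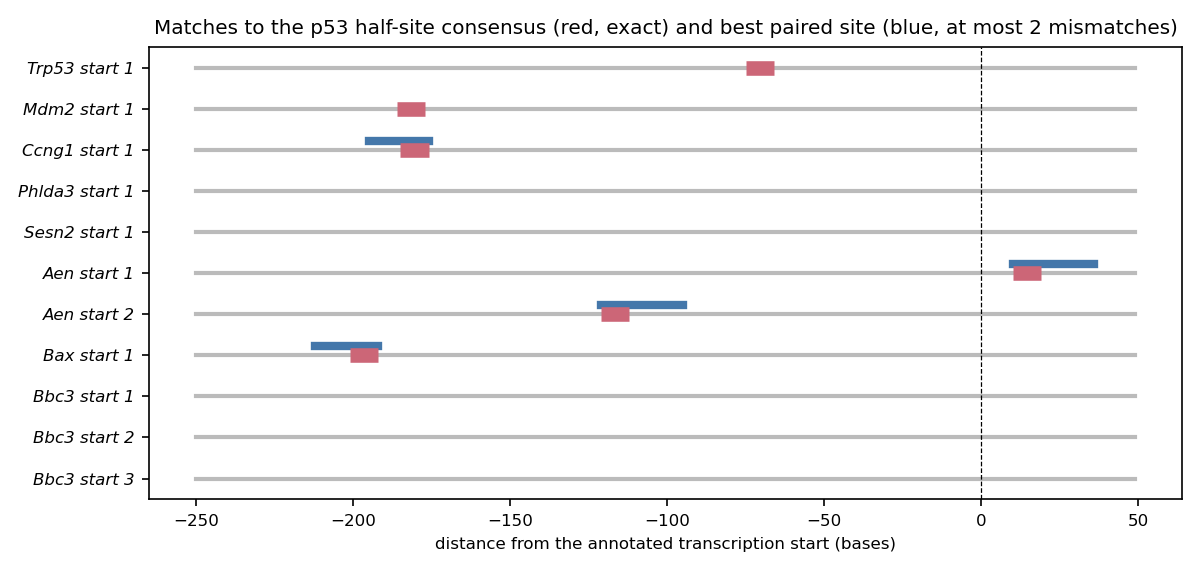
Matches to the p53 half-site consensus in the promoter windows, with the distance from the annotated start in bases on the x axis and 1 row per start; red bars are exact half-sites and blue bars the best paired site with at most 2 mismatches. The 11 windows belong to 8 genes, and red bars stand in the rows of 5 of them.

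In the Lhx2 cKO cortex 4 of the 10 genes rose: Phlda3, Sesn2, Ccng1 and Aen, by 1.26-fold to 1.99-fold. Past the threshold, an adjusted p under 0.05 in edgeR's quasi-likelihood test over all genes, 0 of the 10 fell. At an unadjusted p under 0.05, 2 were lower, Mdm2 and Trp53inp1. DESeq2 and limma-voom also called 0 lower (7.34% and 9.13% of all genes were). Trp53 itself, its feedback regulator Mdm2, and the cell-death genes Bax and Bbc3 did not pass the test. Over all 13288 genes tested, 20.8% passed, 11.6% higher and 9.17% lower, against 4 higher and 0 lower among these 10. The median log2 fold change of the 10 genes was 0.03, beside 0.003 over all genes tested. Both Lhx2 cKO libraries lay above both control libraries for 4 of the 10 genes (30.2% of all genes) and below them for 3 (29.1% of all genes). The CPM (counts scaled to library size with TMM factors) of the 10 genes added together reached 503 and 511 in the controls, beside 502 and 504 in the Lhx2 cKO cortices. The 3 genes with the larger rises, Phlda3, Sesn2 and Ccng1, were the lowest of the 10 in CPM. With 1 library left out, 3 genes were called higher without control 1 (7.49% of all genes were), 3 without control 2 (9.62%), 4 without Lhx2 cKO 1 (10.5%) and 3 without Lhx2 cKO 2 (6.51%). Without Lhx2 cKO 1 Mdm2 was called lower (7.53% of all genes were).

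**Figure D2:**
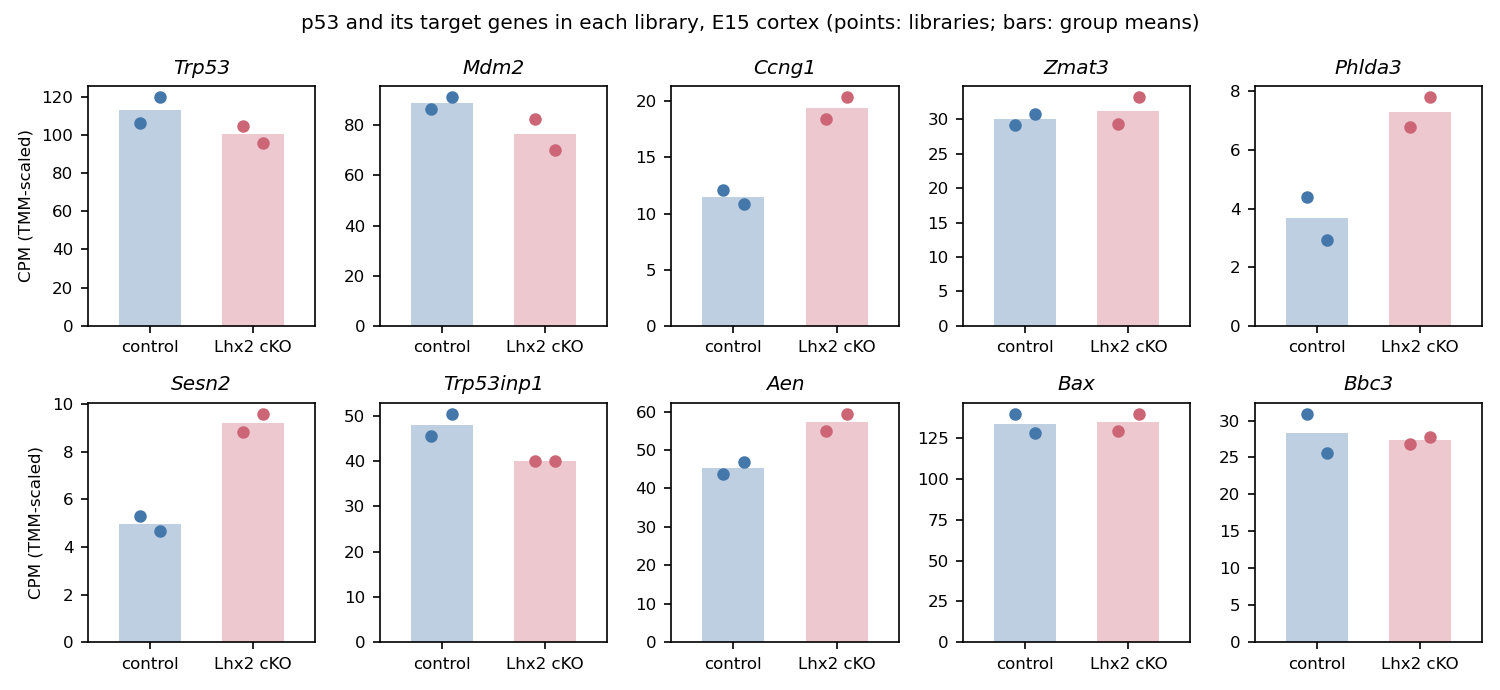
CPM of each of the 10 genes on the y axis, from 0, in the control and Lhx2 cKO groups; points are single libraries and bars are means of 2 libraries. Both Lhx2 cKO points lie above both control points for Ccng1, Phlda3, Sesn2 and Aen, and below them for Trp53, Mdm2 and Trp53inp1.

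Lhx2 served as a check of the labels. The controls held 316 and 287 CPM of it and the Lhx2 cKO cortices 239 and 247 CPM, so most of its transcript remained in whole cortex. The log2 fold change was -0.31 (SE 0.098, adjusted p 0.0191). The call was lost without control 1 (-0.25, adjusted p 0.176), without Lhx2 cKO 1 (-0.28, 0.102) and without Lhx2 cKO 2 (-0.34, 0.0538). Which part of a transcript the deletion removes is not given, so this check is limited. Total counts per library ranged from 22294237 to 24609627, and 3 counts, the floor taken for detection, equal 0.122 to 0.135 CPM. These floors cover counting error only.

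The regulator and its feedback loop came first. Trp53 (ENSMUSG00000059552.14) was measured at 106 and 120 CPM in control and at 105 and 95.6 CPM in Lhx2 cKO. The Lhx2 cKO libraries lay below the control libraries, but control 1 and Lhx2 cKO 1 were nearly level. The fold change was 0.888 (95% interval 0.775 to 1.02, adjusted p 0.226). Mdm2 (ENSMUSG00000020184.16), a direct p53 target whose protein returns p53 to a low level, was measured at 86.4 and 91.1 CPM in control and at 82.6 and 70.3 CPM in Lhx2 cKO. Here too the groups did not overlap, and the spread came mostly from Lhx2 cKO 2. The fold change of Mdm2 was 0.861 (0.749 to 0.991, unadjusted p 0.037, adjusted p 0.126). Without Lhx2 cKO 1 it passed the threshold as lower, with a log2 fold change of -0.34 and an adjusted p of 0.0459. Over the 8 alternative settings that kept all libraries its adjusted p was between 0.108 and 0.202. The 95% intervals given here are per gene, without adjustment over genes, and that of Mdm2 lay below 1. Mdm4, the Mdm2 relative that masks the p53 activation domain, was measured at 137 and 146 CPM in control and at 132 and 124 CPM in Lhx2 cKO, with a fold change of 0.901 (0.79 to 1.03, adjusted p 0.282).

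Among targets that act on growth, metabolism and RNA, 3 rose by 1.68-fold to 1.99-fold. Phlda3 (ENSMUSG00000041801.6), a pleckstrin-homology protein that keeps the kinase Akt from the membrane, was measured at 4.41 and 2.92 CPM in control and at 6.77 and 7.79 CPM in Lhx2 cKO. Both Lhx2 cKO libraries were higher, and control 2 was the lowest of the 4. The log2 fold change was 0.99 (SE 0.24, adjusted p 0.00206), a 1.99-fold rise with an interval of 1.42 to 2.78. It rested on 73 to 179 counts per library, and without control 2 it was 0.72 with an adjusted p of 0.0563. Sesn2 (ENSMUSG00000028893.9), a leucine-sensing inhibitor of mTORC1 that is also induced through ATF4, was measured at 5.28 and 4.68 CPM in control and at 8.83 and 9.58 CPM in Lhx2 cKO. The groups were well apart, and the log2 fold change was 0.89 (SE 0.203, adjusted p 0.00115). Ccng1 (ENSMUSG00000020326.8) encodes cyclin G1, which recruits protein phosphatase 2A to Mdm2. It was measured at 12.1 and 10.9 CPM in control and at 18.4 and 20.3 CPM in Lhx2 cKO. Its log2 fold change of 0.75 (SE 0.149, adjusted p 1.84e-04) had the smallest p of the 10 genes. Ccng1 and Sesn2 kept their calls in all 8 other settings and in all 4 fits with 1 library left out, where Ccng1 ranged from 0.68 to 0.82 and Sesn2 from 0.80 to 0.96 on the log2 scale.

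The other 2 genes of this kind did not pass the test. Zmat3 (ENSMUSG00000027663.13), a zinc-finger RNA-binding protein, was measured at 29.2 and 30.8 CPM in control and at 29.4 and 33.2 CPM in Lhx2 cKO. The groups overlapped, and the fold change was 1.04 (0.889 to 1.22, adjusted p 0.762). Trp53inp1 (ENSMUSG00000028211.12), a stress protein of autophagy and of p53 phosphorylation, was measured at 45.6 and 50.4 CPM in control and at 40.1 CPM in both Lhx2 cKO libraries. Both Lhx2 cKO libraries were lower, and the estimate was -0.26 on the log2 scale (SE 0.104, adjusted p 0.069). Its adjusted p ranged from 0.0653 to 0.139 over the 8 other settings, all short of the threshold.

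Of the 3 cell-death genes, 1 rose. Aen (ENSMUSG00000030609.19), a nuclease that cuts DNA during p53-driven apoptosis, was measured at 43.8 and 47.0 CPM in control and at 55.03 and 59.4 CPM in Lhx2 cKO. The rise was 1.26-fold (1.09 to 1.45), or 0.33 on the log2 scale (SE 0.102, adjusted p 0.0152). Its call was lost without control 1 (0.27, adjusted p 0.155) and without Lhx2 cKO 2 (0.27, 0.175). Bax (ENSMUSG00000003873.12), which opens the outer mitochondrial membrane, was measured at 140 and 128 CPM in control and at 129 and 139 CPM in Lhx2 cKO. The groups lay over each other, with a fold change of 1.01 (0.88 to 1.15, adjusted p 0.966). Bbc3 (ENSMUSG00000002083.14), the BH3-only protein PUMA that releases Bax from its inhibitors, was measured at 30.9 and 25.6 CPM in control and at 26.8 and 27.8 CPM in Lhx2 cKO. Both Lhx2 cKO values lay between the control values, with a fold change of 0.967 (0.818 to 1.14, adjusted p 0.824). For Bax and Bbc3 the intervals reach no further than 1.15-fold up, while those of Phlda3, Sesn2 and Ccng1 begin at 1.42-fold, 1.39-fold and 1.37-fold. Exons of Bax share 192 bases (12.2%) with the annotated gene Gm45808 on the same strand in GENCODE M21, so the counts of Bax are uncertain to that extent.

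**Figure D3:**
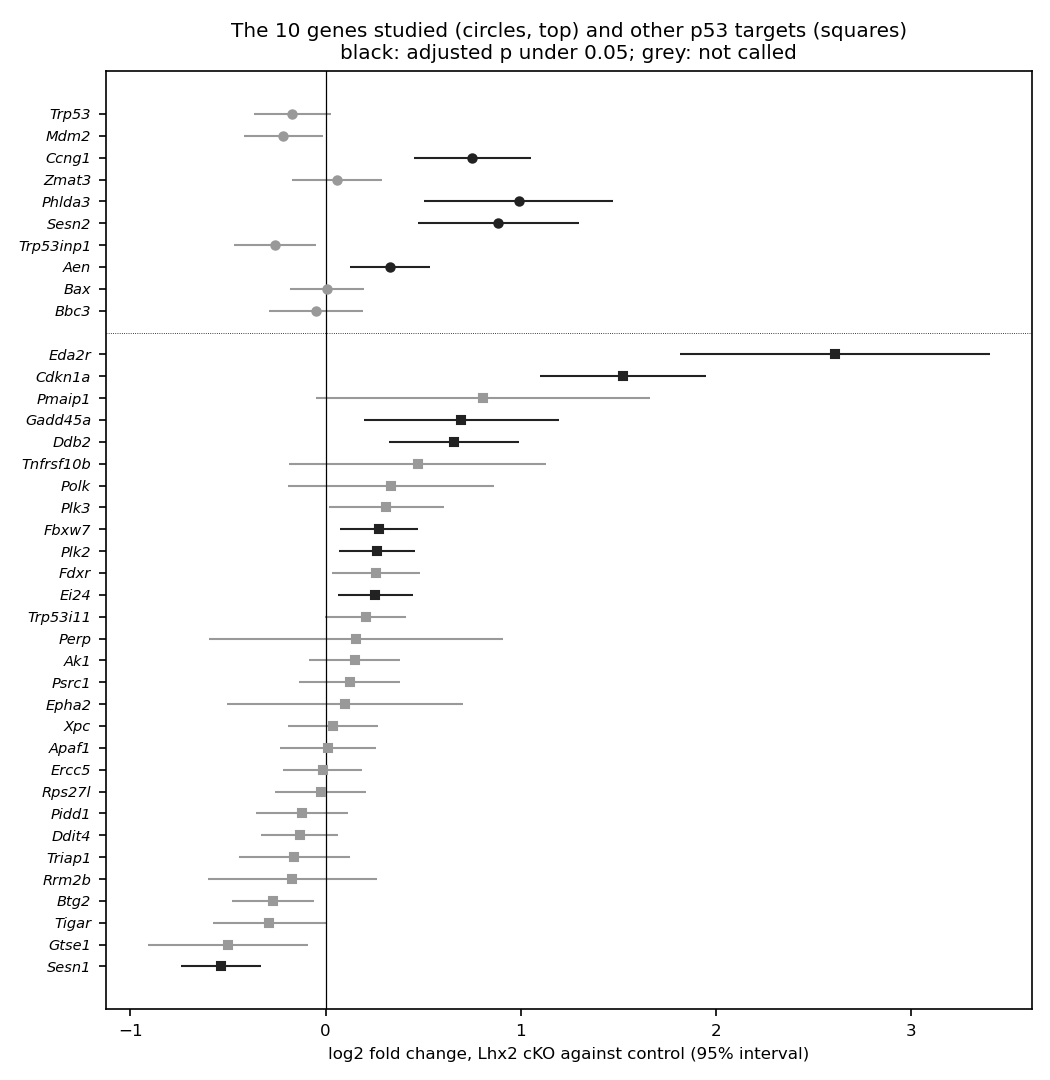
Log2 fold change (Lhx2 cKO over control) on the x axis with its 95% interval, for the 10 genes studied (circles) and the 29 other p53 targets tested (squares); black marks an adjusted p under 0.05. Of the 10, Phlda3 (0.99), Sesn2 (0.89), Ccng1 (0.75) and Aen (0.33) are black, and of the others Eda2r (2.61) and Cdkn1a (1.52) lie farthest to the right.

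Levels between genes were compared per length, as CPM per kilobase of the deposited gene length. In control, Bax was highest at 84.8, followed by Trp53 at 27.9, Mdm2 at 17.5, Bbc3 at 13.3, Aen at 7.83, Trp53inp1 at 7.41, Ccng1 at 3.28, Zmat3 at 2.62, Phlda3 at 2.35 and Sesn2 at 1.43 CPM per kilobase. The values of Aen and Trp53inp1 overlapped between the control libraries, and so did those of Zmat3 and Phlda3. The executioner Bax and the regulators Trp53 and Mdm2 were thus the most abundant transcripts, and 3 of the 4 lowest were genes that rose. In Lhx2 cKO, Phlda3 at 4.67 CPM per kilobase stood above Zmat3 at 2.73, and Sesn2 at 2.65 overlapped Zmat3.

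Other targets of p53 were read from a list of 32 genes, of which 29 were tested. In Lhx2 cKO 7 were called higher and 1 lower, a share of 27.6% beside 20.8% of all genes, and the median log2 fold change was 0.15. Under DESeq2 3 were called higher (8.98% of all genes were), and with library totals alone 4 were (10.8% of all genes), so the count depends on the setting. The count also changed with 1 library left out. Cdkn1a, the cyclin-dependent kinase inhibitor p21 through which p53 stops the cell cycle, was measured at 4.0 and 3.28 CPM in control and at 11.1 and 9.84 CPM in Lhx2 cKO. The rise was 2.88-fold (2.14 to 3.87, adjusted p 4.26e-07), from 82 to 253 counts per library. Exons of Cdkn1a overlap AC167363.2 on the other strand over 7.68% of their length. Eda2r, a receptor of the TNF family, was measured at 0.412 and 1.04 CPM in control and at 3.65 and 5.31 CPM in Lhx2 cKO. Its log2 fold change was 2.61 (SE 0.393, adjusted p 2.28e-06), from 10 and 26 counts in control, and it was 3.42 without control 2. Cdkn1a and Eda2r kept their calls in every other setting and in every fit with 1 library left out.

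The remaining named targets changed less. Ddb2, a damage-recognition subunit of nucleotide excision repair, had a log2 fold change of 0.66 (adjusted p 0.00276), or 0.53 with an adjusted p of 0.0574 without Lhx2 cKO 1. Its exons overlap Acp2 on the other strand over 23.8% of their length, and the use of strand is not given, so its counts are uncertain. Gadd45a, a stress protein of growth arrest, had 0.70 (adjusted p 0.0399), but its call was lost under DESeq2 (0.0886) and without any 1 of the 4 libraries (0.0514 to 0.279), and 19.1% of its exon bases overlap E230016M11Rik on the other strand. Fbxw7, a ubiquitin ligase subunit, had 0.27 (adjusted p 0.0418), lost under DESeq2 (0.0754) and library totals (0.0765), and without control 1 (0.235), control 2 (0.0683) or Lhx2 cKO 2 (0.311). Sesn1, the relative of Sesn2 in the control of mTORC1, fell: it was measured at 58.3 and 64.1 CPM in control and at 42.2 and 42.3 CPM in Lhx2 cKO, and its log2 fold change was -0.53 (SE 0.102, adjusted p 1.13e-04). The pair of sestrins thus moved in opposite directions, each past the threshold. Also called higher, and named after their values were seen, were Plk2 at 0.26 (adjusted p 0.0428) and Ei24 at 0.26 (0.0478). Neither Plk2 nor Ei24 was called higher under DESeq2 or with library totals alone. Exons of Ei24 overlap Gm26787 on the other strand over 6.66% of their length. Over the 21 targets not called, log2 fold changes ranged from -0.50 to 0.81. Among them was Btg2 at -0.27, which is also on the list of progenitor genes.

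Upstream regulators of p53 were read in the same way. Of 18 tested, 5 were called lower and 1 higher (33.3% called, beside 20.8% of all genes), with a median log2 fold change of -0.19. Hipk2, a kinase that phosphorylates p53, had a log2 fold change of -0.63 (adjusted p 2.36e-04), with 73.4 CPM in control 1 beside 46.9 in control 2. Its call was lost under DESeq2 (0.197) and without control 1 (-0.28, adjusted p 0.143). The acetyltransferases and p53 coactivators Ep300 and Crebbp had -0.36 (adjusted p 0.00522) and -0.33 (0.0117), and Crebbp lost its call without control 1 (0.222) and without Lhx2 cKO 2 (0.104). Trp53bp1, the p53-binding protein of the mitotic surveillance pathway, had -0.35 (adjusted p 0.0066), or -0.29 with 0.117 without Lhx2 cKO 2, and shares 15.04% of its exon bases with Tubgcp4 on the other strand. The other calls, named after their values were seen, were the damage kinase Atr at -0.31 (adjusted p 0.0433) and the p53 relative Trp73 at 0.44 (0.048). Exons of Atr and Trp73 overlap antisense transcripts, and the call of Trp73 was lost in 5 of the 8 other settings and without any 1 library (0.0671 to 0.283). Atr lost its call with a mean count of at least 50 (0.0512), under DESeq2 (0.116) and without control 1 (0.0505), control 2 (0.219) or Lhx2 cKO 1 (0.37). DESeq2 called 3 regulators lower and 0 higher (7.34% and 8.98% of all genes). Without control 1 there were 2 called lower (5.98% of all genes were), without control 2 there were 4 (8.12%), without Lhx2 cKO 1 there were 4, and without Lhx2 cKO 2 there were 3 (5.78%).

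The general machinery of cell death held few calls. Of 20 members of the Bcl-2 family and caspases tested, 1 was called (5%, beside 20.8% of all genes), and the median log2 fold change was 0.01. The call was Bok, a Bax-like protein, at 0.30 (adjusted p 0.0263). It was lost under DESeq2 (0.0557) and without control 2 (0.201), Lhx2 cKO 1 (0.0978) or Lhx2 cKO 2 (0.0966). The other 19 ranged from -0.15 to 0.28, among them the survival factor Mcl1 at 0.01.

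Because Sesn2 is also a target of the stress factor ATF4, 12 genes of that pathway were read beside it. Of the 11 tested, 3 were called higher and 1 lower (36.4% called, beside 20.8% of all genes), with a median of 0.26. Vldlr, a lipoprotein receptor of the reelin pathway, had a log2 fold change of 0.66 (adjusted p 1.26e-06) and Phgdh, the first enzyme of serine synthesis, 0.42 (0.00519). Atf3, a stress-induced transcription factor, had 1.41 (adjusted p 0.019) from 15 to 56 counts per library. Atf5 fell, with -0.85 (adjusted p 6.43e-06). The core genes Atf4 (-0.11, adjusted p 0.459) and Ddit3 (-0.04, 0.872) did not pass the test. Over the 7 genes not called, log2 fold changes ranged from -0.19 for Shmt2 to 0.95 for Slc7a11. Slc7a11 had an adjusted p of 0.134 and 15 to 43 counts per library. Of the 11 tested, 7 had a log2 fold change above 0 and 4 below. The part of ATF4 in the rise of Sesn2 was not tested. Phgdh lost its call without control 1 (0.126), and Atf3 lost it under DESeq2 (0.055), without control 1 (0.151) and without Lhx2 cKO 1 (0.195).

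**Figure D4:**
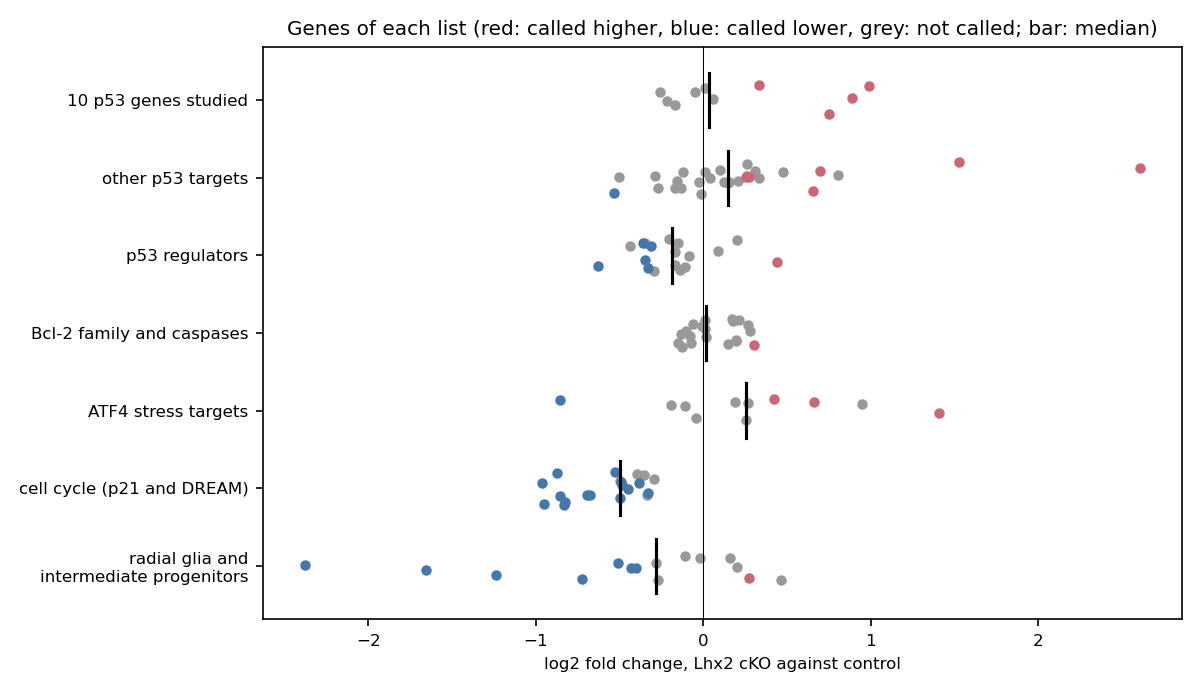
Log2 fold change of each gene on the x axis, by list; red points were called higher, blue points lower, grey points not called, and the bar is the list's median. Drawn are the p53, cell death, ATF4, cell cycle and progenitor lists, without the markers of other cells; among those drawn the medians run from -0.50 for the cell cycle genes to 0.26 for the ATF4 targets, with the 10 p53 genes at 0.03.

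Cell cycle genes that p53 is known to repress indirectly, through p21 and the DREAM complex, were lower in Lhx2 cKO. All 20 were tested and had a log2 fold change below 0, 15 were called lower and 0 higher (75% called, beside 20.8% of all genes and 9.17% lower), also 0 higher under DESeq2 (8.98% of all genes were), and the median log2 fold change was -0.50. Mki67, the proliferation marker, was measured at 129 and 155 CPM in control and at 78.5 and 77.0 CPM in Lhx2 cKO, with a log2 fold change of -0.87 (adjusted p 5.85e-09). Top2a had -0.86, Foxm1 -0.95 and Cdk1 -0.96, each with an adjusted p under that of Ccng1. The same genes are lower wherever fewer cells cycle, and in bulk tissue fewer cells of a type and less RNA per cell cannot be told apart.

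Progenitor markers were read beside them. Of 15 genes of radial glia and intermediate progenitors, 7 were called lower and 1 higher (53.3% called, beside 20.8% of all genes and 9.17% lower), with a median of -0.28. Pax6, the radial glia transcription factor, was measured at 123 and 134 CPM in control and at 57.5 and 51.7 CPM in Lhx2 cKO (log2 fold change -1.24, adjusted p 6.40e-13). Eomes, which marks intermediate progenitors, was measured at 215 and 216 CPM in control and at 68.8 and 67.7 CPM in Lhx2 cKO (-1.66, adjusted p 5.49e-17). Notch1 had -0.72 (adjusted p 3.92e-07) and the proneural gene Neurog1 -2.38 (1.27e-06). The call in the other direction, named after its values were seen, was the glutamate transporter Slc1a3 at 0.27 (adjusted p 0.0425), a call lost under DESeq2 (0.0876) and library totals (0.0603) and without control 1 (0.532), Lhx2 cKO 1 (0.0696) or Lhx2 cKO 2 (0.194). The other 7 did not pass the test, with values from -0.28 to 0.47. Among them were the radial glia genes Hes1 at -0.28, Sox2 at -0.11, Fabp7 at 0.16, Vim at 0.20 and Hes5 at 0.47. Nes, also of radial glia and named after its values were seen, was called lower at -0.40 (adjusted p 0.00438). Of all 15 genes, 11 had a log2 fold change below 0 and 4 above. Side by side, the drop of Eomes or Pax6 was larger than the change of any of the 10 p53 genes, and Phlda3, at 0.99, came nearest to them in size.

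Markers of other cells moved with the same groups. The 10 microglia markers added to 119 and 121 CPM in control and 244 and 270 CPM in Lhx2 cKO, with 9 called higher and 0 lower (11.6% of all genes were called higher and 9.17% lower). The 10 vascular markers added to 265 and 304 CPM in control and 337 and 382 CPM in Lhx2 cKO, with 6 called higher and 1 lower. The lower call, named after its values were seen, was Rgs5 (-0.34, adjusted p 0.0108). Tek (0.49), Kcnj8 (0.16) and Pdgfrb (0.06) were not called, so the vascular markers did not move as 1 group. The 7 oligodendrocyte precursor markers added to 50.1 and 56.9 CPM in control and 94.6 and 105 CPM in Lhx2 cKO, with 6 called higher and 0 lower. Cspg4, named after its values were seen, alone held 26.5 and 31.2 CPM in control and 37.5 and 37.6 CPM in Lhx2 cKO. Sox10 was not called (0.58, adjusted p 0.374), and its groups overlapped. The 7 red blood cell genes tested added to 3178.5 and 2344 CPM in control and 2134 and 1903 CPM in Lhx2 cKO, with 1 called higher and 5 lower. The 10 neuron markers added to 5307 and 5228 CPM in control and 5344 and 5616 CPM in Lhx2 cKO, with 1 called higher and 2 lower. No marker of these lists that was tested stood at 0 in any library. The neuron list holds the cortical genes Tbr1, Bcl11b and Neurod6, so the labelled tissue was met in all 4 libraries. Phlda3, Sesn2, Ccng1 and Cdkn1a are expressed in many cell types, and the part of these cells in their rise was not tested.

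In the authors' deposited table the same 4 genes had an adjusted p under 0.05. The authors' deposited table gives log2 fold changes of 0.98 for Phlda3, 0.88 for Sesn2, 0.74 for Ccng1 and 0.32 for Aen, and it marks all but Aen as up. For Mdm2 the authors' deposited table gives -0.22 with an adjusted p of 0.133, and for Cdkn1a 1.52 with 2.38e-10.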

How the data were processed

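The deposited table holds raw read counts per gene for 4 libraries. Per the submitters' processing notes, Trim Galore, Subread, featureCounts and edgeR were used with build mm39; versions, annotation and the use of strand are not given in the sources used here. The authors' deposited log2 fold change, log2 CPM, p-value and -log10 columns are their own comparison.

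Counts were tested with edgeR 4.0.16 in R 4.3.3: TMM, filterByExpr (minimum 10 counts, 1 gene removed), glmQLFit and glmQLFTest. The test was Lhx2 cKO over control, two-sided, with Benjamini-Hochberg over 13288 genes. It was also run on simulated data, but the outcome is not given here, and no support for the p-values is drawn from it. SE is the absolute log2 fold change over the square root of F, and 95% intervals use the fit's degrees of freedom. An exact permutation test of 2 against 2 libraries cannot give p below 0.333. Alternatives were DESeq2 1.42.0, limma-voom (3.58.1), other scalings and filters, the replicate block and leaving out libraries, where a lone library is assumed to vary like the other group. Exon overlaps (GENCODE M21, GRCm38) and promoters (RefSeq, GRCm38.p6) were matched by symbol, with no coordinates carried to mm39.

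The members and lists were chosen with earlier results of these data known. Named were the 10 members, Lhx2, Cdkn1a, Mdm4, Pax6, Eomes and Mki67. Per list, up to 4 called genes by smallest p were named too (6 for other p53 targets). Markers of other cells are given mainly as sums, and further names are marked or serve as uncalled examples. Some items are not reported here.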

Additional observations from a re-analysis of the deposited data

How the results depend on the processing

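The 4 calls among the 10 p53 genes held in all 8 other settings with all libraries. With the replicate block 4 were called higher and 0 lower as well (12.1% and 9.57% of all genes). At an adjusted p under 0.01 in the main test, 3 were called higher and 0 lower (7.31% and 5.46% of all genes). Aen was not called there. Over all genes 1697 were called at that threshold, 972 higher and 725 lower. What the replicate numbers stand for is not given. The deviations of equal numbers correlated at 0.001 across genes, and this value alone does not decide whether equal numbers form pairs. Aen lost its call without control 1 or Lhx2 cKO 2, and Phlda3 without control 2. Depth limits the low genes most: Eda2r, Phlda3, Sesn2 and Cdkn1a rest on 10 to 253 counts per library.

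With 1 library left out, the log2 fold change ranged from -0.34 to -0.11 for Mdm2, from 0.72 to 1.30 for Phlda3, from 0.27 to 0.39 for Aen and from -0.38 to -0.25 for Lhx2. Whether a p53 gene was called lower depended on the library left out. Over all genes 1633 to 2396 were called, 865 to 1395 higher and 768 to 1079 lower, and at an adjusted p under 0.01 there were 1697, 972 and 725. List medians ranged from -0.0425 to 0.103 for the 10 p53 genes, 0.128 to 0.21 for other p53 targets, 0.0193 to 0.0453 for the Bcl-2 family and caspases, 0.126 to 0.388 for ATF4 targets, -0.597 to -0.467 for cell cycle genes, -0.352 to -0.221 for progenitors, -0.0227 to 0.0449 for neurons, 1.12 to 1.35 for microglia, 0.241 to 0.69 for vascular cells, -0.644 to -0.178 for red blood cells and 1.03 to 1.36 for oligodendrocyte precursors. The median of the 10 p53 genes thus has no stable sign.

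With 1 library left out, the number of genes called also changed in some fits. This held for other p53 targets, p53 regulators, the Bcl-2 list, ATF4 targets and progenitor genes. With all libraries, a mean count of at least 50, which leaves fewer genes, gave medians of 0.13 for other p53 targets and 0.115 for ATF4 targets. Regulators called higher were 0 under RLE size factors (11.4% of all genes were), library totals (10.8%), the replicate block (12.1%), DESeq2 (8.98%) and limma-voom (11.6%). Under DESeq2 3 were lower (7.34% of all genes). Other p53 targets called higher were 4 with library totals (10.8% of all genes) and 3 under DESeq2 (8.98%). The Bcl-2 list had 0 called higher under DESeq2 (8.98%). Progenitor genes called higher were 0 with library totals (10.8%) and 0 under DESeq2 (8.98%). Other causes were not tested.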
